A study of Mus musculus with 36 samples.

Results

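The CTCF peaks of mouse embryonic stem cells on day 4 and on day 6 were compared interval by interval. The members are the 36787 peaks of the day 4 list and the 38109 peaks of the day 6 list on chromosomes 1 to 19, X and Y, 74896 of the 182783 peaks in the 8 lists of the study. A peak was called shared when it overlapped a peak of the other day by at least 1 bp, and it was otherwise assigned to its own day alone. The lists came from chromatin immunoprecipitation followed by sequencing (ChIP-seq), in which chromatin fragments bound by a protein are recovered with an antibody and counted along the genome. The study holds 36 samples in 12 groups of 3, with CTCF, MBD3 and input chromatin each on days 0, 2, 4 and 6, and 6 of the samples, 3 CTCF libraries of each day, lie behind the 2 lists. All groups are the same cells, named mESC in the labels and marked WT in the names of the lists, and they carried no allele or added agent that the labels name. They were grown in serum replacement medium with leukaemia inhibitory factor (LIF), typically on irradiated mouse embryonic fibroblasts, so feeder chromatin can be present in every group. The labels name no step that separates the days, and they leave unsaid whether the replicates were separate cultures.

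CTCF is a zinc finger protein that binds a long, directional DNA motif, blocks enhancers from reaching promoters and halts the loop-extruding cohesin complex, so that paired CTCF sites become the anchors of chromatin loops. In embryonic stem cells CTCF sites mark many borders of topological domains, and a large set of them is known to be occupied in most cell types. MBD3 belongs to the NuRD complex, which couples nucleosome remodelling to histone deacetylation, and the title of the study places that complex at CTCF sites.

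The authors called each list once on the 3 replicates together, so there is no spread between replicates and no difference between the days could be tested. Each peak carries the authors' fold enrichment and a -log10 q. The fold is the number of fragments over the summit divided by the background expected there, with a single fragment first added to each. The fold is therefore lower than the plain quotient of fragments and background, most clearly where the background is low. Since the peak caller derives fold and p from the fragments and the background by fixed formulas, both were recovered for each peak. The genome-wide background level was 1.83 fragments for the day 4 list and 1.87 for the day 6 list. At that level the lowest number of fragments in any peak was 8 on both days. Intervals of shares are exact (Clopper-Pearson) 95% intervals and cover counting error only, because fragments were amplified by PCR without molecular identifiers and nearby peaks are not independent.

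The core of the CTCF motif was found in a minority of the promoters with peaks of any class. It was held by 12.6% with a shared peak, 6.45% with a peak of day 4 alone and 10.4% of day 6 alone. The promoters of highest -log10 q in each class, at Nipsnap2, Bmyc and Tert, did not hold it. As examples, 3 promoters of each class that hold it are printed. They are the promoters with the highest -log10 q among those of their class that hold the core CCA, AG and GGC, in that order with any 2 bases in each of the gaps, on either strand, taken from RefSeq (GRCm38.p6), each running from 250 bases before to 50 bases after the gene start, 5′ to 3′ on the strand of the gene. Capitals mark the 12 bases of the match. The first 3 had a shared peak: Lsm11, a gene for a component of the machinery that forms histone mRNA ends (chr11:45944886-45945185, minus strand), Mrpl34, a mitochondrial ribosomal protein gene (chr8:71464676-71464975, plus strand), and Adprhl2, an ADP-ribose hydrolase gene (chr4:126321654-126321953, minus strand).
Lsm11: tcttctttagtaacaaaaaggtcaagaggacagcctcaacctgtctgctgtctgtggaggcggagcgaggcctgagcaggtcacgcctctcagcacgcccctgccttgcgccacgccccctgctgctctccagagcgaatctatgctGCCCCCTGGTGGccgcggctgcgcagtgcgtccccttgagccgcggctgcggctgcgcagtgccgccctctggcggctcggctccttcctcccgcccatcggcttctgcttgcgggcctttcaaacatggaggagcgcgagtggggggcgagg
Mrpl34: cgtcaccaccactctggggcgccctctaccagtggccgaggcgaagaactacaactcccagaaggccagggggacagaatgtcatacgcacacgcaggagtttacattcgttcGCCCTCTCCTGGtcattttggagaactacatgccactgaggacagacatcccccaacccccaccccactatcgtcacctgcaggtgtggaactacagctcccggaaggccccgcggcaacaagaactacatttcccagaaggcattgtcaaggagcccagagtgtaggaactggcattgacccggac
Adprhl2: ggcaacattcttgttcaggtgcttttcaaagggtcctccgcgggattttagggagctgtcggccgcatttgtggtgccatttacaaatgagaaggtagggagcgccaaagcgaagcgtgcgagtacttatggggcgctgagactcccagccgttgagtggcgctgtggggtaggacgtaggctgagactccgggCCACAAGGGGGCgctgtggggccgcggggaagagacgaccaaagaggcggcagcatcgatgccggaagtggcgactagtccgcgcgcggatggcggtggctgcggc
The next 3 had a peak on day 4 alone: Cpz, a carboxypeptidase gene (chr5:35525577-35525876, minus strand), the predicted gene Gm32776 (chr12:106146639-106146938, plus strand) and Wwc1, the gene of the Hippo pathway protein KIBRA (chr11:35980478-35980777, minus strand).
Cpz: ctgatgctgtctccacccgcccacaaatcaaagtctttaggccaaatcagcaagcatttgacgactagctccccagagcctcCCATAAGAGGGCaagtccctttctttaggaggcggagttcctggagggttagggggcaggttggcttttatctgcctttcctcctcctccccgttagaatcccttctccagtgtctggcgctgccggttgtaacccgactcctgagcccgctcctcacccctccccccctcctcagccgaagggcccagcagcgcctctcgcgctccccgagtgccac
Gm32776: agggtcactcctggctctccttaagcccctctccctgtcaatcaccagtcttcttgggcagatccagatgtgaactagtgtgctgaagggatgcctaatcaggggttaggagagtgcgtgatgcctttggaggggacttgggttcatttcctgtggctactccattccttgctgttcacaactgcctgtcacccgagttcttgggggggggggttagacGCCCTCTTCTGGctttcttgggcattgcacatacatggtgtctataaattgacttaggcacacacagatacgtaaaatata
Wwc1: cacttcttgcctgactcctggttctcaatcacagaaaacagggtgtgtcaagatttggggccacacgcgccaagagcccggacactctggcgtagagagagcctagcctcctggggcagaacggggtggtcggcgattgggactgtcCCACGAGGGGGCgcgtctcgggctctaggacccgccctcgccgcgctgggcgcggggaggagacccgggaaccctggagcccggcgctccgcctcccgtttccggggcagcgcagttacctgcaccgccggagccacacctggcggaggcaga
The last 3 had a peak on day 6 alone: 4930480C01Rik (chr5:65951093-65951392, plus strand), the zinc finger gene Zpr1 (chr9:46272814-46273113, plus strand) and Gpha2, a glycoprotein hormone subunit gene (chr19:6226151-6226450, plus strand).
4930480C01Rik: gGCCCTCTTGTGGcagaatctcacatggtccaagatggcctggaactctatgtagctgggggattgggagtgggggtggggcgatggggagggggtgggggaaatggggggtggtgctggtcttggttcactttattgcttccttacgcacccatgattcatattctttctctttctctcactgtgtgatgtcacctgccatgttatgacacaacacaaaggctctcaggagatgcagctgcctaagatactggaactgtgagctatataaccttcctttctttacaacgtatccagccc
Zpr1: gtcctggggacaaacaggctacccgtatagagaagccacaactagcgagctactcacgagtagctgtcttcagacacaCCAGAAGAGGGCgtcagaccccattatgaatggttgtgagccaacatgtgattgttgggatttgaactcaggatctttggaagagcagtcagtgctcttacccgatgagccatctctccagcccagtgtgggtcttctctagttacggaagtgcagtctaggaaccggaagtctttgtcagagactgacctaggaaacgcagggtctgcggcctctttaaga
Gpha2: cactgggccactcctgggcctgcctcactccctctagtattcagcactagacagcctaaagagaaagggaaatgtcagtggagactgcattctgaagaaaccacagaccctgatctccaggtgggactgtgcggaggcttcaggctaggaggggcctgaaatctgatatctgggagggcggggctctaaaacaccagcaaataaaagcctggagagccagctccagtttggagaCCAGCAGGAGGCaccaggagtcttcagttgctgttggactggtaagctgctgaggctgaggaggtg

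The folds at these promoters were far apart between the classes. Lsm11 had a fold of 28.2 on day 4 (625 fragments) and 29.0 on day 6 (986 fragments), Mrpl34 17.1 and 22.2, and Adprhl2 18.6 and 19.8, and the summit of each lay at most 20 bp from the middle of the match on both days. The day 4 peak had a fold of 4.02 at Cpz (35 fragments), 3.86 at Gm32776 (21 fragments) and 3.11 at Wwc1 (28 fragments). The day 6 peak had a fold of 6.39 at 4930480C01Rik (35 fragments), 3.15 at Zpr1 (57 fragments) and 3.96 at Gpha2 (39 fragments). The single-day promoters thus had between 21 and 57 fragments at the summit, where the shared ones had at least 604. The shared promoters printed are extremes by -log10 q. Over all shared peaks the median number of fragments was 57 on day 4 and 66 on day 6. The summit lay 172 bp from the middle of the match at Cpz, 62 bp at 4930480C01Rik and 59 bp at Zpr1, and 39, 24 and 15 bp at Gm32776, Wwc1 and Gpha2. The peaks at Cpz, 4930480C01Rik and Zpr1 are therefore not centred on the capitals printed for them.

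Of all 32851 promoters of the table, 2.43% held the motif on either strand. Among the 2111 promoters with a shared peak (6.43% of all promoters) 266 held it, or 12.6% (95% interval 11.2 to 14.1). Of the 124 promoters with a peak of day 4 alone (0.377% of all) 8 held it, or 6.45% (2.83 to 12.3), and of the 164 with a peak of day 6 alone (0.499% of all) 17 did, or 10.4% (6.16 to 16.1). Promoters with no peak on either day held it in 1.66% of cases. The shares of both single-day classes lay above that of promoters without a peak, and their intervals overlapped that of the shared class. Where a shared peak and the motif met, the summit lay within 50 bp of the motif in 221 of 266 promoters on day 4 and in 220 of 266 on day 6, against 7 of 8 for day 4 alone and 12 of 17 for day 6 alone. A match describes the letters of the promoter and is not a measured binding site, and promoters hold only a small share of the CTCF peaks. Promoters of chromosome 18 were not used here, and the motif was not searched under the other peaks.

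Most CTCF sites were found on both days. On day 4, 33262 peaks were shared, or 90.4% (90.1 to 90.7), and 3525 were on day 4 alone, or 9.58% (9.28 to 9.89). On day 6, 33194 peaks were shared, or 87.1% (86.8 to 87.4), and 4915 were on day 6 alone, or 12.9% (12.6 to 13.2). Merging the lists gave 41624 sites, of which 33184 (79.7%) had a peak on both days. The single-day share was thus larger on day 6, whose list is also the longer one, and with equal numbers of peaks, the top 36787 of each list by -log10 q, it was 10.7% on day 4 and 10.8% on day 6.

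The overlap rule had few borderline cases. Only 2 of the 33272 overlapping pairs of intervals shared fewer than 50 bp, and the median overlap was 283 bp. The narrowest overlap, 14 bp on chromosome 15, joined a day 4 peak of fold 18.4 at 38247023 to 38247680 with a day 6 peak of fold 9.34 at 38247667 to 38248231. The nearest miss was a gap of 119 bp on chromosome 8, between a day 4 peak of fold 2.95 at 49037458 to 49037716 and a day 6 peak of fold 14.2 that ended at 49037338. Single-day peaks were mostly far from the other list: the nearest peak of the other day was a median of 16460 bp away for day 4 alone and 14053 bp for day 6 alone. Only 81 (2.30%) and 119 (2.42%) of them had such a peak within 500 bp.

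Peaks found on 1 day were weak ones. The median fold was 9.14 for shared and 4.47 for single-day peaks of day 4, and 9.81 and 4.70 on day 6. The median number of fragments at the summit was 57 and 19 on day 4 and 66 and 21 on day 6. Shared intervals were also wider, with medians of 300 bp against 197 bp on day 4 and 331 bp against 213 bp on day 6. A -log10 q of 10 or more was reached by 88.7% of the shared and 23.0% of the single-day peaks of day 4 (29489 and 812 peaks), and by 90.9% and 33.0% on day 6 (30186 and 1620 peaks). A fold of 10 or more was found for only 20 peaks of day 4 alone and 52 of day 6 alone, against 14212 and 16127 shared peaks.

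**Figure D1:**
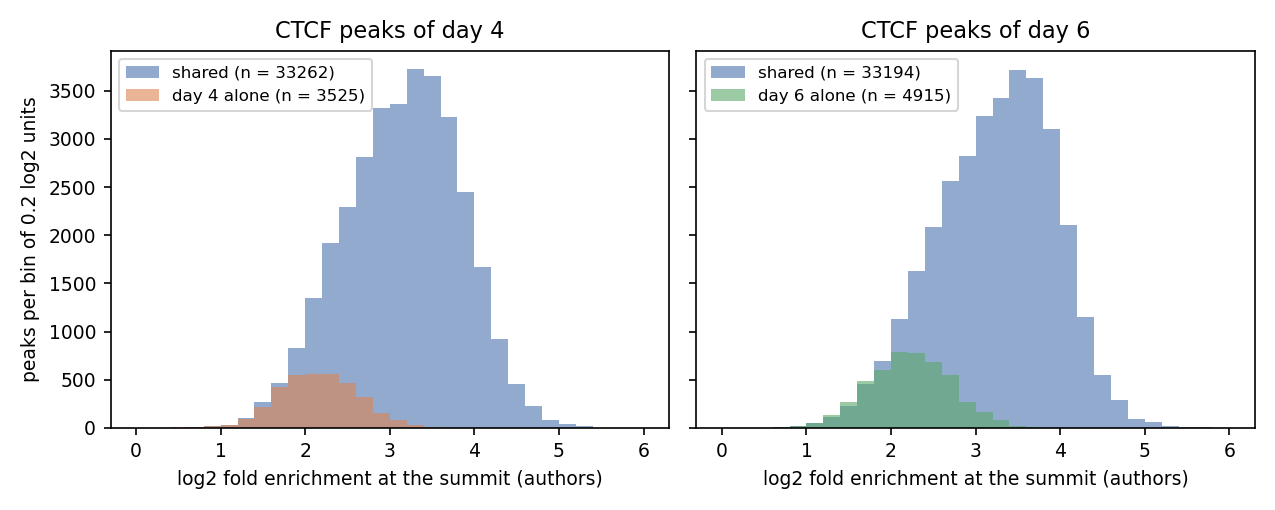
Number of CTCF peaks by log2 of the authors' fold enrichment at the summit, in bins of 0.2, for day 4 (left) and day 6 (right), with shared peaks in blue and single-day peaks in orange or green. Single-day peaks centre on medians of 4.47 and 4.70 on the linear scale and shared peaks on 9.14 and 9.81.

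The share found on the other day climbed with the fold in both lists. In the lowest decile of day 4 fold 58.5% of the peaks had a day 6 peak (56.8 to 60.1), in the third decile 84.4%, in the fifth 96.6% and in the tenth all 3679. In the day 6 list the same deciles gave 51.2% (49.6 to 52.8), 76.1%, 94.3% and all 3810. Every peak with a day 4 fold of at least 15.8 or a day 6 fold of at least 16.4, the lower limits of the tenth deciles, was therefore found on both days.

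**Figure D2:**
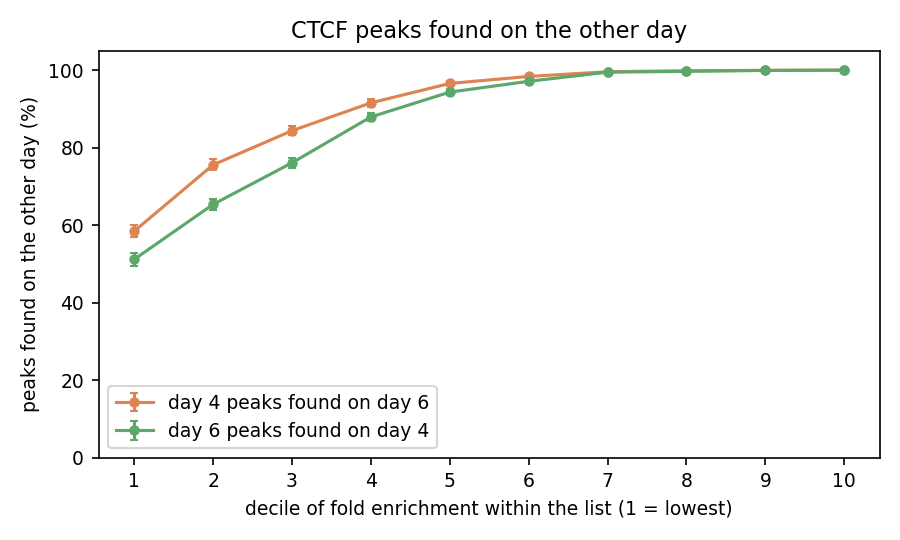
Share of CTCF peaks found on the other day (y axis, percent) by decile of fold enrichment within the list (x axis), for day 4 in orange and day 6 in green, with exact 95% intervals as bars. Both lines rise from 58.5% and 51.2% in the lowest decile to 100% in the highest.

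The strongest sites of all were shared. On day 4 the highest fold, 56.4, lay at chr12:31967582-31967948 inside Prkar2b, which encodes a regulatory subunit of protein kinase A, and the fold there was 47.7 on day 6. The site inside Mmrn2, an endothelial matrix protein gene, had a fold of 50.2 on day 4 and 25.7 on day 6. A site 3375 bp from Jph2, which encodes a junction protein of muscle membranes, had 43.9 on day 4 and the highest fold of day 6, 57.6. All of these carried CTCF on days 0 and 2 and MBD3 on all 4 days. The next sites by day 4 fold lay 5098 bp from Ccn5, a matricellular protein gene (42.2 on day 4, 23.8 on day 6), and 39527 bp from Nfkb1, an NF-kappa-B subunit gene (41.9 and 32.6). By day 6 fold the next lay inside the sorting nexin gene Snx29 (37.1 on day 4, 56.1 on day 6), inside Ctif, a translation initiation factor gene (31.5 and 55.0), 9480 bp from Hepacam2 (35.8 and 53.6), and inside the long noncoding RNA gene Gm16230 (26.8 and 51.6).

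Among the peaks of day 4 alone none had a fold above 13.1. The first, at chr6:20752338-20752602, lay 462849 bp from the potassium channel gene Kcnd2, with 42 fragments at its summit and a CTCF peak of fold 7.55 on day 0. The second, at chr15:3174855-3175194, lay 95724 bp from Selenop, the gene of a selenium carrier, with a fold of 13.1, 36 fragments, and CTCF on days 0 and 2 with folds of 4.40 and 4.36. A peak inside Flrt2, a gene for an axon guidance protein, had a fold of 12.0, after 6.21 on day 0 and 5.72 on day 2. The other peaks among the top 10 lay near Wdhd1, Cypt12, Xylt1, Casp12 and Lrrn1 and inside Lnpep and Rasgef1a, with folds from 11.0 to 12.0. All of the 10 had CTCF on day 0 or day 2, and none had an MBD3 peak on any day. They were thus sites without a call on day 6 and with one earlier.

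Peaks of day 6 alone reached somewhat higher folds. The first, at chr10:130092921-130093178, lay 17691 bp from the olfactory receptor gene Olfr822, with a fold of 16.0 and 45 fragments, and had CTCF on day 0 (9.03) and day 2 (5.18). The second lay 11059 bp from Anxa1, an annexin gene (fold 15.0, with 10.3 on day 0 and 4.91 on day 2). A peak inside Myof, the myoferlin gene, had a fold of 14.1 and was seen on day 2 only before (4.94), and 1 inside Osbpl1a, a sterol-binding protein gene, had 13.7 after 6.37 on day 0. Of the 10 strongest, 2 had no CTCF peak on any other day. These were a peak inside Bmp5, a bone morphogenetic protein gene, at chr9:75829311-75829668 (fold 12.9, 42 fragments), and a peak 86486 bp from Npr3, a natriuretic peptide receptor gene, at chr15:11753289-11753525 (fold 12.7, 48 fragments). The site near Npr3 was the only 1 of the 10 with MBD3, with an MBD3 fold of 4.63 on day 6 and no MBD3 peak on the other days. The remaining 4 lay near Iqcm, 1700003H04Rik and Adgrl4 and inside Rabgap1l, with folds from 12.5 to 13.2, and all had CTCF on day 0.

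Fold and -log10 q chose different single-day peaks at the top. By -log10 q, the first peak of day 4 alone lay at chr15:75086745-75086920, 21335 bp from Ly6c2, with a fold of 1.41 from 1958 fragments over a background of 1392. The first of day 6 alone lay at chr2:98662252-98662738, with a fold of 1.98 from 3905 fragments over a background of 1971. Such peaks lie where the background itself is high. Single-day peaks with a background over 10 times the level of their list numbered 40 (1.13%) on day 4 and 125 (2.54%) on day 6, and shared ones 1193 (3.59%) and 2107 (6.35%).

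Days 0 and 2 were not used to form the classes. CTCF was present on day 0 at 95.2% of the shared peaks of day 4 (95.0 to 95.5) and at 53.1% of the peaks of day 4 alone (51.5 to 54.8). For day 6 the shares were 95.2% (95.0 to 95.5) and 54.5% (53.1 to 55.9). On day 2, whose list is the shortest, CTCF was present at 77.7% of the shared and 13.5% (12.4 to 14.7) of the single-day peaks of day 4, and at 77.8% and 12.9% (12.0 to 13.8) on day 6. With only peaks of a -log10 q of 10 or more in both lists, the single-day shares found on day 2 were 35.2% and 29.5%, and the shared ones 85.7% and 85.8%. A peak then counts as single-day also where the other day has a weaker peak. For such peaks with no peak at all on the other day the shares were 27.5% and 19.4%, and the shared ones 83.9% and 82.7%. Shared peaks are stronger, so their shares were also weighted to the fold deciles of the single-day peaks. The weighted shares were 88.3% for day 0 and 46.6% for day 2 on day 4, and 87.8% and 46.5% on day 6, still well above the single-day values. Within the lowest decile alone, 87.4% of the shared and 50.4% of the single-day peaks of day 4 were found on day 0, and 86.2% and 52.9% of those of day 6.

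The single-day peaks fell mainly into sites that had been present on day 0 and sites seen on no other day. Of the 3525 peaks of day 4 alone, 1873 had CTCF on day 0, 367 of them (10.4% of the class) also on day 2, and 1543 (43.8%, 42.1 to 45.4) had it on neither day. Of the 4915 peaks of day 6 alone, 2679 had CTCF on day 0, 482 (9.81% of the class) also on day 2, and 2085 (42.4%, 41.0 to 43.8) on neither. The sites seen on no other day had median folds of 4.26 and 4.57, and 189 and 479 of them reached a -log10 q of 10. Peaks of day 0 that met a single-day peak were weak themselves, with median folds of 4.76 (day 4 alone) and 4.85 (day 6 alone), against 8.86 for those that met a shared peak.

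MBD3 was rare at single-day CTCF sites. On day 4, 22.6% of the shared peaks (22.1 to 23.0) and 1.76% of the single-day peaks (1.35 to 2.25, 62 peaks) had an MBD3 peak of the same day. On day 6 the shares were 29.8% (29.4 to 30.3) and 0.692% (0.480 to 0.965, 34 peaks). MBD3 was more frequent at strong CTCF peaks. Weighted to the fold of the single-day ones, the shared peaks had MBD3 at 4.80% on day 4 and 2.94% on day 6. These shares were closer to the single-day ones but still above them. Without the sites of high background the weighted shares were 2.75% and 2.17% and the single-day shares 1.43% and 0.543%.

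**Figure D3:**
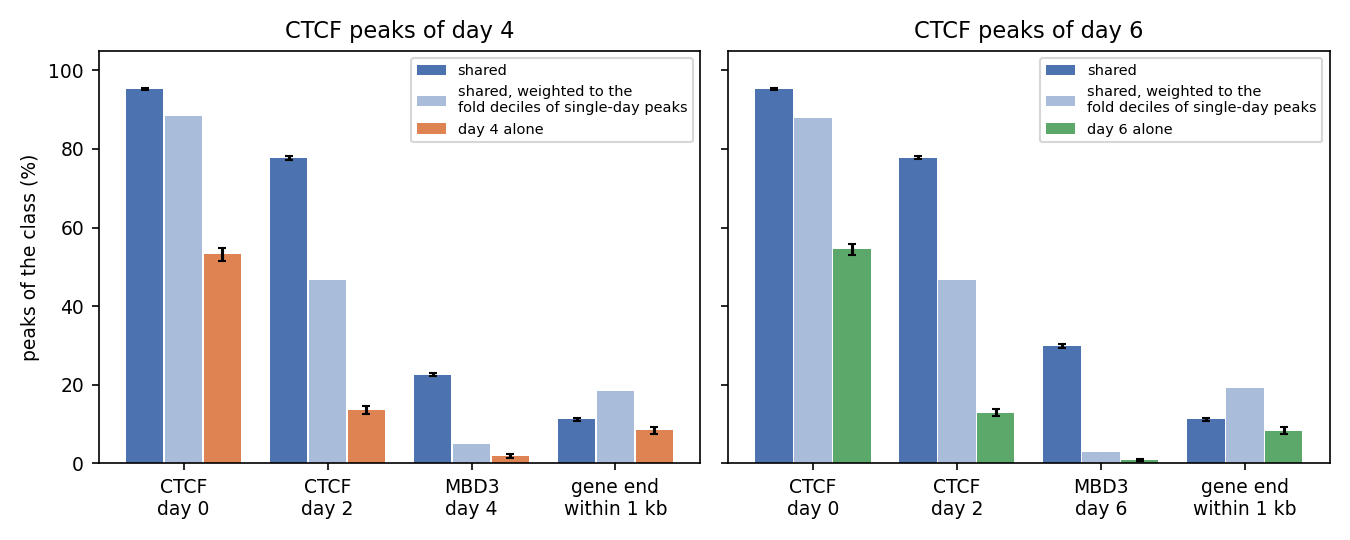
Share of CTCF peaks (y axis, percent) with a CTCF peak on day 0 or day 2, an MBD3 peak on the same day, or a protein-coding gene end within 1 kb, for day 4 (left) and day 6 (right). Dark blue bars are shared peaks, pale bars shared peaks weighted to the fold deciles of the single-day peaks and orange or green bars single-day peaks, with exact 95% intervals on the unweighted bars. Presence on day 0 stands at 53.1% and 54.5% for single-day peaks, against 88.3% and 87.8% for the weighted shared ones.

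The share at gene ends was compared next. The summit was within 1 kb of an end of a protein-coding gene for 11.1% of the shared (10.8 to 11.5) and 8.37% of the single-day peaks of day 4 (7.48 to 9.33), and for 11.1% and 8.28% (7.53 to 9.09) of those of day 6. Weighting the shared peaks to the fold of the single-day ones raised their share to 18.4% and 19.2%, and in the lowest fold decile of day 4 the shares were 27.9% for shared and 14.9% for single-day peaks. Without the sites of high background the unweighted shares were 7.92% and 8.12% on day 4, so that the difference turned its sign, and 7.94% and 6.64% on day 6. The weighted shares of the shared peaks were then 12.7% and 13.2%. Inside protein-coding genes lay 47.8% of the shared and 50.6% of the single-day peaks on day 4, and 47.9% and 51.9% on day 6. The median distance to a gene start, without chromosome 18, was 18.1 kb for the shared peaks of either day, 24.9 kb for day 4 alone and 20.8 kb for day 6 alone. More than 50 kb from a start lay 23.4% of the shared peaks of either day, 32.3% (30.8 to 33.9) of day 4 alone and 26.6% (25.3 to 27.9) of day 6 alone.

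The X chromosome had more single-day peaks on day 6. Of its 1005 peaks of day 6, 168 had no day 4 peak, or 16.7% (14.5 to 19.2), against 12.8% (12.4 to 13.1) on the autosomes. When the autosomes were weighted to the fold deciles of the X peaks, their share was 11.4%. On day 4, 9.41% (7.60 to 11.5) of the 925 X peaks had no day 6 peak, against 9.58% on the autosomes, or 7.88% when weighted. Among the autosomes the share of day 4 alone ran from 7.65% on chromosome 11 (6.65 to 8.75) to 12.2% on chromosome 12 (10.7 to 13.9), and the share of day 6 alone from 11.6% on chromosome 11 (10.4 to 12.9) to 15.0% on chromosome 18 (13.0 to 17.3). Y had 23 peaks on day 4 and 26 on day 6, too few to compare.

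At shared sites the strength of the peak was largely kept. Of the overlapping pairs, 33097 joined exactly 1 peak of each day, with median folds of 9.15 on day 4 and 9.81 on day 6. The median log2 ratio of day 6 to day 4 fold was 0.08, with quartiles of -0.22 and 0.38, and 57.4% of the pairs were higher on day 6. Within 2-fold of each other lay 96.5%, with 790 sites over 2-fold higher on day 6 and 362 over 2-fold higher on day 4. Summits hardly moved, with a median shift of 7 bp and 99.6% within 100 bp, and the intervals were wider on day 6 at 69.0% of the sites (medians of 300 and 330 bp).

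**Figure D4:**
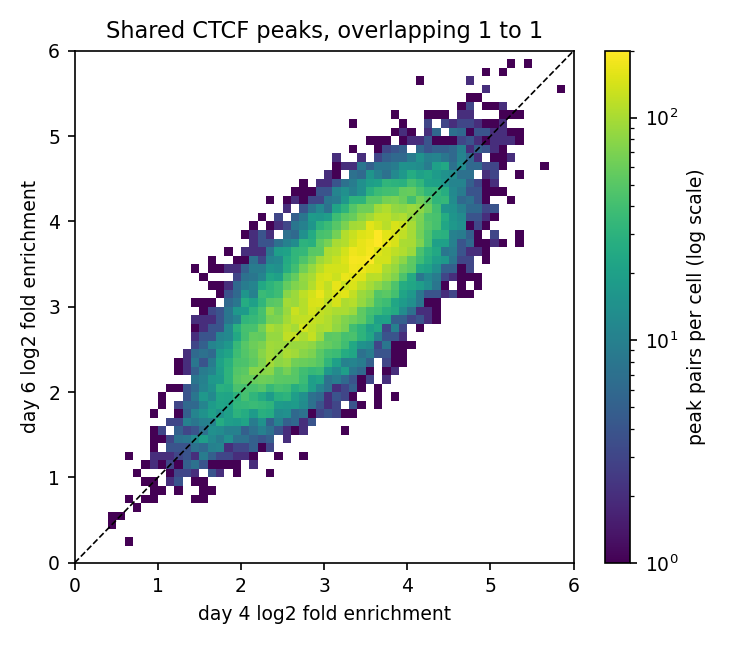
Log2 fold enrichment of the 33097 one-to-one shared CTCF sites on day 4 (x axis) and day 6 (y axis), with colour giving the number of sites per cell of 0.1 by 0.1 on a log scale and the dashed line marking equal folds. The cloud follows the line, with 96.5% of the sites within 2-fold of it.

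The fold mixes the fragments bound with the background, and these behaved differently. Across the 33097 sites, which share the libraries of each day, Pearson's r between the days was 0.777 for log2 fold (Spearman's rho 0.767) and 0.955 for log2 fragments (0.953). Fragments were within 2-fold of each other at 99.1% of the sites, with a median log2 ratio of 0.23, and 274 sites had over 2-fold more on day 6 and 32 over 2-fold more on day 4. The background had a median log2 ratio of 0.15. Across sites the log2 ratio of fold had an r of 0.539 with that of the fragments and -0.709 with that of the background. Of the 790 sites over 2-fold higher in fold on day 6, 106 (13.4%) had over 2-fold more fragments, and of the 362 over 2-fold higher on day 4, 14 (3.87%) did. Their median log2 background ratios were -0.69 and 1.11, and their membership was chosen by fold, so these are descriptions of the chosen sites.

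The sites of most unequal fold were picked by fold, so their fragments and backgrounds describe those sites only. The highest ratio among sites with a -log10 q of at least 10 on both days was at chr15:59905886-59906188, 108818 bp from 4933412E24Rik, where the fold was 5.25 on day 4 and 18.7 on day 6. There the fragments went from 48 to 77 and the background from 8.33 to 3.18. A site 7486 bp from Wfdc21 went from a fold of 10.1 to 34.8 (55 and 106 fragments, backgrounds of 4.55 and 2.08), and 1 on X, 20454 bp from Gm5936, from 6.07 to 20.3 (58 and 70 fragments, 8.71 and 2.50). The other high ratios were near Htr1a, a serotonin receptor gene (4.47 and 14.6), and inside Slc2a13, a myo-inositol transporter gene (4.58 and 15.0). At all 5 the background was lower on day 6 and the fragments were higher.

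In the other direction, the site inside Cc2d2b on chromosome 19 had a fold of 26.0 on day 4 and 8.70 on day 6, with 84 and 71 fragments over backgrounds of 2.27 and 7.27. The site inside Virma, a gene of the RNA methylation machinery, had 14.4 and 4.89, with 40 and 28 fragments. A site 4066 bp from Sv2b, a synaptic vesicle protein gene, had 29.0 and 9.84, with 81 and 83 fragments, over backgrounds of 1.83 and 7.53. The fold there fell with no loss of fragments. The remaining sites lay 14045 bp from Ipcef1 (26.6 and 9.06, with 76 and 74 fragments) and inside Lyrm7, a respiratory complex assembly gene (12.3 and 4.21, with 40 and 36 fragments).

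The fold ratio at shared sites varied with where MBD3 had a peak. At the 20932 sites with MBD3 on neither day the median log2 ratio of CTCF fold was 0.06 (quartiles -0.25 and 0.37). At the 2312 sites with MBD3 on day 4 only it was -0.14 (-0.44 and 0.14), and 36.2% of them were higher on day 6. At the 4706 sites with MBD3 on day 6 only it was 0.27 (-0.02 and 0.56), and 73.8% were higher on day 6. CTCF fold was thus the higher on the day on which MBD3 was called. This order held in each of the 10 deciles of mean fold, with medians from -0.25 to -0.02 for MBD3 on day 4 only and from 0.15 to 0.36 for MBD3 on day 6 only. At the 5147 sites with MBD3 on both days the median was 0.09.

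The numbers of CTCF fragments were higher on day 6 in each class, and differed little between MBD3 on day 4 only and MBD3 on day 6 only. Their median log2 ratio was 0.17 with MBD3 on neither day, 0.26 with MBD3 on day 4 only, 0.30 with MBD3 on day 6 only and 0.36 with MBD3 on both days, positive in each class. The median log2 ratio of the background was 0.46 with MBD3 on day 4 only and 0.03 with MBD3 on day 6 only, so that it differed between these classes by more than the fragments did. At the 5147 sites with MBD3 on both days, the fold ratios of CTCF and MBD3 had an r of 0.569 (rho 0.550). The ratios of their fragments had an r of 0.166, and the ratios of their backgrounds an r of 0.924. The background ratios of the CTCF and the MBD3 lists thus varied together across these sites, around different medians, a log2 ratio of 0.28 for CTCF and -0.22 for MBD3. The points share the day, and the labels do not name the input behind each list. MBD3 folds there had medians of 4.03 on day 4 and 4.58 on day 6, and the median log2 ratio of MBD3 fragments was 0.

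**Figure D5:**
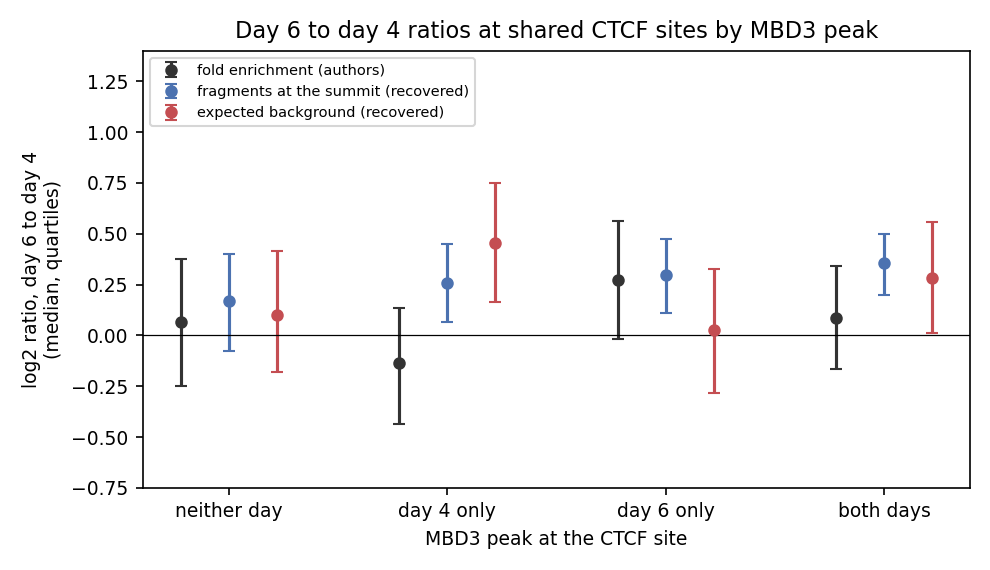
Log2 ratios of day 6 to day 4 (y axis) at one-to-one shared CTCF sites, by whether an MBD3 peak overlapped on neither day, day 4 only, day 6 only or both days (x axis). Points are medians and bars quartiles, for the authors' fold in black, the fragments recovered at the summit in blue and the expected background in red. The fold is lowest with MBD3 on day 4 only (-0.14) and highest with MBD3 on day 6 only (0.27), while the fragments are at 0.26 and 0.30 and the background at 0.46 and 0.03.

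Genes were counted as occupied when a peak overlapped the 1 kb around either end of a protein-coding gene. Of 21887 genes, 4886 (22.3%) were occupied on at least 1 of the days, 282 (1.29%) on day 4 and not day 6, and 438 (2.00%) on day 6 and not day 4. The other 4166 were occupied on both days, 85.3% of those occupied at all. Without peaks of high background, 2842 genes were occupied on both days. Then 283 were occupied on day 4 and not day 6, and 381 on day 6 and not day 4. Among the genes occupied on both days, the highest -log10 q of day 4 were at Nipsnap2 (fold 30.8 on day 4 and 40.0 on day 6), Gdf15, a stress-induced growth factor gene (24.4 and 33.5), Comtd1 (20.0 and 23.9), Gm40469 (7.36 and 7.42) and Sh3glb1 (18.0 and 27.0). The median fold was 8.65 and 9.23 at genes occupied on both days, 3.37 at those of day 4 alone and 3.49 at those of day 6 alone. For 16 and 50 of the single-day genes the peak itself was shared and only its edge crossed the 1 kb limit on 1 of the days. Of the single-day genes, 220 of 282 and 344 of 438 were occupied by a peak that was also present on day 0. Over all peaks that share was 53.1% for day 4 alone, 54.5% for day 6 alone and 95.2% for the shared peaks of either day. The 282 and 438 genes include the 16 and 50 whose peak is shared.

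Single-day genes were led by low to middling peaks. On day 4 alone the first by -log10 q were Gm13271 (fold 3.43, 166 fragments), Chil1, a chitinase-like protein gene (6.77, 51 fragments), 2410141K09Rik (9.17), Tsc22d3, the gene of a glucocorticoid-induced leucine zipper protein (7.52), Bmyc (5.53) and Cyp3a13, a cytochrome P450 gene (6.77). All 6 of these peaks were present on day 0. On day 6 alone they were Tnni2, a troponin gene of fast muscle (7.59, 60 fragments), Dusp13, a phosphatase gene (5.99), Tert, the gene of the catalytic subunit of telomerase (4.66, 80 fragments), Slc25a15, a mitochondrial ornithine carrier gene (6.33), Arl15 (3.49) and Pcdhb18 (10.3). The peaks at Tnni2, Slc25a15 and Pcdhb18 were absent on days 0 and 2.

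In 16 lists of genes for stem cells, lineages, imprinting, chromatin and known CTCF-bound loci, 99 of 333 matched genes were occupied on both days, 6 on day 4 alone and 6 on day 6 alone. Of the listed genes 33.3% were thus occupied on at least 1 of the days, beside 22.3% of all genes, and 1.80% on each day alone, beside 1.29% and 2.00%. The clustered protocadherins, cell surface proteins whose promoter choice is known to depend on CTCF, made up 47 of the 99. Of their list 89.5% were occupied on at least 1 of the days, many of the gamma genes through 1 peak that they share. In the other lists that share ran from 0% to 33.3%, so the 33.3% over all lists leans on the protocadherins. The lists were chosen with earlier results of these data known.

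The protocadherins were the list with the most occupied members, 47 of 57 on both days, 1 on day 4 alone, 3 on day 6 alone and 6 on neither. Folds varied along the clusters: Pcdhb8 had 20.6 on day 4 and 10.3 on day 6, Pcdhb3 16.5 and 18.8, and Pcdha8 13.6 and 15.5. Among the gamma genes, Pcdhga3 had 22.8 and 12.1, and Pcdhga1 had 12.1 and 10.8 at an end, and so a peak, that many of the gamma gene models share. Pcdhb18 had a day 6 peak of fold 10.3 with 34 fragments and none on the other 3 days, the highest fold of a single-day peak in the lists. Pcdha3 had 6.27 on day 6 alone (17 fragments), Pcdhb21 5.26 on day 6 alone (15 fragments) and Pcdha4 4.51 on day 4 alone (36 fragments). The protocadherin genes are close copies of each other, so reads shared between copies make these values uncertain.

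Of 22 core and naive pluripotency genes, 13.6% had a CTCF peak at an end on at least 1 of the days, beside 22.3% of all genes. Only Tbx3 was occupied on both days (folds of 6.43 and 5.70). Klf4, a core reprogramming factor gene, had a peak on day 6 alone with a fold of 2.90 (37 fragments), while another peak inside the gene was shared, with folds of 5.76 and 5.58. Zfp42, the gene of the stem cell marker REX1, counted on day 4 alone because its shared peak of fold 5.55 crossed the 1 kb limit on that day only. None of the 12 formative and primed genes was occupied on either day, a list too short to set against the share of all genes.

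The lineage lists hold structural marker genes beside regulators. Occupied on at least 1 of the days were 16.7% of the neuroectoderm and 20.0% of the mesoderm and endoderm list. The trophoblast list had 30.0%, beside 22.3% of all genes. In the neuroectoderm list, the structural genes Tubb3, for a neuronal tubulin, and Nes, for nestin, had folds of 12.0 and 14.4 and of 5.90 and 5.72. The regulator Olig2 had a day 4 peak alone, with a fold of 3.35 and 29 fragments. Of 20 mesoderm and endoderm regulators, Mesp1 (7.92 and 9.00), Gata6 (7.33 and 7.60) and Eomes (6.22 and 6.37) were occupied on both days, and Sox17 on day 4 alone through the edge of a shared peak. Of the 10 genes in the trophoblast list Ets2 (8.93 and 11.7), the keratin gene Krt8 (7.18 and 8.32) and Tead4 (2.93 and 7.03) were occupied on both days. At Tead4 the fragments went from 33 to 70. The fibroblast genes Col1a1 (15.9 and 21.7), Pdgfra (9.62 and 11.7) and Col1a2 (8.98 and 6.25) were occupied on both days, and 13 of the 16 fibroblast genes on neither. That is 18.8% of the list on at least 1 of the days, again beside 22.3% of all genes. Occupancy of a gene end by CTCF does not tell feeder cells from stem cells, and the share of feeder chromatin was not measured.

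Of 37 imprinted genes, 24.3% were occupied on at least 1 of the days, beside 22.3% of all genes. Occupied on both days were 7, among them Peg10 with Sgce, which share 1 peak (11.5 and 12.2), Magel2 (13.6 and 16.1) and Rasgrf1 (5.37 and 9.51). Mest, an imprinted hydrolase gene, had a day 4 peak of fold 4.22 alone at its end, and another peak inside the gene was shared, with folds of 9.32 and 13.2. Copg2, its neighbour, had a day 4 peak of fold 2.04 alone. Hox genes were occupied on both days for 9 of 39 (23.1%) and on a single day for none. Of all genes, 22.3% were occupied on at least 1 of the days, and 1.29% and 2.00% on day 4 or day 6 alone. The highest -log10 q of the Hox genes were at Hoxc10 (folds of 21.8 and 24.4), Hoxa5 with Hoxa6, which share 1 peak (14.9 and 14.5), and Hoxb5 (14.4 and 17.8). Noncoding genes were looked at separately. Xist, the RNA that silences the X chromosome, had a shared peak with folds of 7.33 and 11.2, Ftx, a noncoding gene of the same region, 5.50 and 15.9, and the imprinted Meg3 13.0 and 11.6. H19, Pvt1, Tsix and Jpx had no peak within 1 kb of an end on either day.

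Of 23 genes for CTCF, cohesin and its loaders, 7 (30.4%, beside 22.3% of all genes) had peaks, all of them on both days, led in -log10 q by Pds5b (17.8 and 18.4), Esco1 (22.0 and 15.5) and Stag2 (24.1 and 22.6), which act with cohesin, and by Ctcf (11.9 and 9.59, with 268 and 340 fragments). Of 15 NuRD subunit genes 20.0% were occupied on at least 1 of the days, beside the 22.3% of all genes. Cdk2ap1 (4.82 and 4.53) and Hdac1 (4.32 and 4.29) were occupied on both days, and Mbd3 on day 6 alone with a fold of 2.07. In the DNA methylation and demethylation list 33.3% of 15 genes were occupied on at least 1 of the days, and in the cell cycle list 20.0% of 20. Gadd45b, of the DNA demethylation list, had 7.30 and 14.4, with 128 and 343 fragments, and the cell cycle gene Trp53 had 20.5 and 31.0, with 469 and 786 fragments. At the globin loci Hbq1b (14.5 and 10.9) and Hbq1a (12.1 and 10.2) were occupied on both days, and Mpg, beside the alpha globin genes, on day 6 alone with a fold of 3.38. At the boundary loci only 12.5% of 16 genes were occupied on at least 1 of the days, beside 22.3% of all genes. These were Wnt6 (9.68 and 9.76) and Myc (2.84 and 3.17), both of them on both days.

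The genes with the most single-day peaks inside them were mostly long ones. On day 4 they were Tenm3, a teneurin adhesion protein gene, with 6 of its 11 day 4 peaks on that day alone over 1297 kb, Gm37013 with 6 of 65, Galntl6 with 5 of 13, Skap1 with 5 of 15 and Cdh13, a cadherin gene, with 5 of 22. On day 6 they were Gm38666, Gm38667 and Gm37013 with 6 each of 63, 63 and 65, Dlg2, a synaptic scaffold gene, with 5 of 14 over 1973 kb, B3glct with 5 of 16 and Fry with 5 of 33. The 3 predicted genes on chromosome 18 overlap each other and span the protocadherin clusters, so they count the same peaks. Their single-day shares were 9.23% for Gm37013 on both days and 9.52% for Gm38666 and Gm38667 on day 6. These lay below the shares of the whole lists, 9.58% on day 4 and 12.9% on day 6. The other genes named lay above them, from 15.2% at Fry to 54.5% at Tenm3. B3glct stood out among the genes named for its short length of 84.5 kb.

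The overlap of pairs of lists depends on their lengths, and with the full lists 93.8% of the day 2 peaks met a day 4 peak, against 90.4% of the day 4 peaks with a day 6 peak. With equal numbers of peaks, as many as in the shorter list, 89.3% (89.0 to 89.7) of the day 4 peaks met a day 6 peak, against 85.4% (85.1 to 85.8) for day 0 with day 6 and 85.9% (85.5 to 86.3) for day 2 with day 4. With the top 9006 CTCF peaks by -log10 q of each day the shares were 84.8% (84.0 to 85.5), 78.2% (77.3 to 79.0) and 77.8% (77.0 to 78.7). The MBD3 lists of days 4 and 6, cut to the same number, met at 57.8% (56.8 to 58.8). That number is the whole MBD3 list of day 4, weak peaks included, but only the strongest part of each CTCF list. The MBD3 and CTCF shares are thus not of like peaks. The pairs of days share lists with each other, and none of these differences could be tested over replicates.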

How the data were processed

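CTCF and MBD3 peaks were measured by ChIP-seq in groups of 3 replicates per antibody and day, as the labels give them. The submitters' processing notes name the build mm10 and, with no role or order, MACS2 2.1.2, bedtools 2.25.0, SAMtools 1.9, FastQC 0.11.7 and Bowtie2 2.3.4. The names of the deposited lists show that the authors pooled replicates 1 to 3, so no list gives replicate error and p-values were not computed. In each deposited list the authors give a fold enrichment at the summit (a ratio) and its -log10 p and -log10 q, whose lowest -log10 q was 1.31 in both lists used. The score column of the deposited lists was not used. Rows of an interval with several summits were reduced to the summit of highest -log10 q.

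Overlaps were counted with code tested on simulated data against bedtools 2.31.1. Fragments and background were recovered from fold and p, with a tolerance of 0.1% of the -log10 p. Every peak with a -log10 p under 30 had a match, against 8.77% (day 4) and 8.92% (day 6) when fold and p were mixed up, and stronger peaks match too easily for this check. Genes and promoters came from RefSeq tables of GRCm38.p6, the assembly of mm10, which give gene ends without exons, so exons and introns were not told apart. Of 347 listed genes 333 matched a protein-coding gene. Shares weighted to fold used deciles of each list.

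Named were the 10 single-day peaks of highest fold per day, the 5 shared peaks of highest fold per day, the 5 highest and 5 lowest fold ratios among one-to-one pairs with a -log10 q of 10 or more on both days, the 5 genes per day with most single-day peaks, and up to 4 genes per list and class by -log10 q. Sites named by -log10 q, the genes leading the counts over all genes, Pcdhb3, Pcdhb8, Pcdha8, Xist and the other noncoding genes were chosen after their values were seen, as was the split of the fold into fragments and background. The rule first set for promoters was up to 4 per class by -log10 q. Those printed were instead limited to promoters that hold the motif. Members and lists were chosen with earlier results of these data known. Alternatives were a stricter -log10 q, equal list lengths, other overlap rules, all sequences, wider gene windows, separate summits and leaving out sites of high background. The software was Python 3.11.15 with scipy 1.17.1, matplotlib 3.10.9, pandas 2.3.3 and numpy 2.4.6.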

Additional observations from a re-analysis of the deposited data

Results flagged for a closer look

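CTCF peaks outside chromosomes 1 to 19, X and Y were in no comparison above and were looked at because they lie outside the main measurement. The day 4 list held 52 of them, 13 on the mitochondrial sequence and 39 on unplaced sequences, with folds from 1.32 to 23.1 and a median of 6.34. The day 6 list held 38, 3 mitochondrial and 35 unplaced, with folds from 1.15 to 17.3 and a median of 7.67. On each day 34 of them overlapped a peak of the other day.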

How the results depend on the processing

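In every alternative tried the shared peaks were found on days 0 and 2, and with MBD3, more often than the single-day peaks, and 63 of 64 such differences, gene ends included, kept their sign. Below, a difference is the percent of shared minus the percent of single-day peaks, for day 4 and then day 6. With a -log10 q of 10 or more in both lists, where a weaker peak of the other day no longer counted, the single-day share was 6.69% and 11.2%. The differences were then 18.9 and 22.0 for day 0, 50.6 and 56.3 for day 2, 24.3 and 33.3 for MBD3 and 3.94 for gene ends on day 4, and 154 genes were occupied on day 4 and not day 6. For such peaks with no peak at all on the other day the single-day share was 2.68% and 5.09%, and the differences were 25.5 and 29.8 for day 0, 56.4 and 63.3 for day 2, 23.8 and 31.6 for MBD3, and 4.19 and 3.92 for gene ends. With equal numbers of peaks the single-day share was 10.7% and 10.8%, and the day 0 difference of day 6 was 36.8. With summits within 100 bp the single-day share was 10.2% and 13.3%, and the differences were 40.3 for day 0 on day 4, 62.1 and 63.8 for day 2, and 20.0 and 28.4 for MBD3. Leaving out sites of high background, an alternative chosen after seeing the data, gave single-day shares of 10.1% and 13.4%, MBD3 differences of 17.7 and 27.0 and gene end differences of -0.196, a reversed sign, and 1.30. Windows of 5 kb gave 8998 genes on both days, 457 on day 4 and not day 6, and 722 on day 6 and not day 4. Separate summits gave shared median folds of 9.05 and 9.71, and 17.2% of promoters with a shared summit held the motif. For these values the cause was not tested. The other 57 of these values stayed within their 95% interval, or within 1.5 times for counts.

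No paired analysis was possible because the authors pooled the replicates of each day into 1 list. Leaving out a replicate was not possible either. Peaks under 8 fragments were not detectable at the background level of these lists. Signal outside the peaks was not used here, so the level of a single-day site on the other day was not measured.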
